A study of Mus musculus with 13 samples.

Results

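Cells descended from Lgr5+ intestinal stem cells and carrying the surface antigen CD24 were compared between 3 and 8 weeks after labelling. The comparison used 4 of the 13 single-cell libraries of the series, namely 1 library of 3-week traced CD24+ cells and 3 libraries of 8-week traced CD24+ cells, chosen by their sample labels. All came from the small intestine of Lgr5-CreERT2 mice on the C57Bl6/J background that also carried the Rosa26LSL-YFP reporter. Tamoxifen activated the Cre recombinase in cells that express Lgr5, and YFP then marked those cells and all their descendants. YFP+ cells of the CD24+ fraction were sorted 3 or 8 weeks after tamoxifen, and no group here lacks the Cre allele or the tamoxifen. The age and sex of the mice were not used here, and the labels do not say whether the 8-week libraries come from separate mice, so their spread may be technical. With 1 library at 3 weeks there is no replicate check and no test of the difference between the times. Each 3-week value is therefore set against the lowest and the highest of the 8-week libraries.

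The crypts of the small intestine renew from Lgr5+ stem cells at their base. Wnt signals keep these cells dividing, and daughters that escape Notch signalling switch on Atoh1 and become secretory. Secretory cells include Paneth cells, which release lysozyme and defensins beside the stem cells, goblet cells, which release the mucin Muc2, and enteroendocrine cells, which release hormones. Tuft cells are chemosensory cells that carry Dclk1. The CD24 gate is known to enrich Paneth, enteroendocrine and tuft cells, and a weaker CD24 signal is found on stem cells.

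Each library is 1 plate of 96 cell barcodes, which are numbered 1 to 96 in all 4 libraries, and the barcode sequences were not compared. Cells with at least 3000 transcripts from genes were kept. This left 62 cells with 437261 transcripts at 3 weeks, against 87, 65 and 69 cells with 1383151, 648144 and 797341 transcripts in 8-week replicates 1, 2 and 3. The median kept cell held 6521 transcripts at 3 weeks and 14458, 7666 and 9135 at 8 weeks, so the 3-week library was the shallowest. The epithelial gene Epcam stood at 1155 counts per 1000000 transcripts (CPM) at 3 weeks and at 1006, 1126 and 932.5 CPM at 8 weeks. The sorting antigen Cd24a stood at 2960 CPM at 3 weeks and at 1521, 2038 and 2030 CPM at 8 weeks, above every 8-week library but by less than 2-fold from the nearest. Gata6 was present in all 4 libraries (62 CPM at 3 weeks, 101 to 108 CPM at 8 weeks). A list of 4 small intestine genes, chosen after seeing the data, summed to 363 CPM against 401, 458 and 359 CPM. Of its 3 genes with at least 50 CPM at either time, 2 lay below every 8-week library, beside 31.4% of all such genes. The 2 large intestine genes in the files summed to 6.88 CPM against 5.07, 9.29 and 3.77 CPM.

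The transcripts of all kept cells of a library were summed and scaled to CPM. A gene was called when the 3-week value, after adding 10 CPM, lay at least 2-fold beyond the nearest 8-week library and the higher time point reached 50 CPM. Of 4226 genes with at least 50 CPM at either time, 145 were called higher at 3 weeks (3.43%) and 143 lower (3.38%). Between the highest and the lowest 8-week library, 152 of these genes (3.60%) differed by 2-fold or more. In 18 of the genes called higher and 7 of those called lower, a single cell held over 25% of the transcripts at the time where the gene was higher, and such genes are not among the 10 leading genes of each direction. The leading genes called higher were Zg16, Clca3, Fcgbp, Scin, Muc2, Hspa1a, Agr2, Spink3, Tff3 and Tpsg1. Those called lower included Gm14851, AY761184, Defa5, Mptx2, Gm15284, Defa26, Defa3, Gm7849 and Ang4. Of the former, 6 belong to the list of 7 goblet cell genes, and the latter are led by defensins and other Paneth cell genes. With library totals taken without the Paneth list genes, 99 genes were called higher and 216 lower, and the median log2 difference of all tested genes moved from 0.07 to -0.08. With the mean over cells in place of the sum, 68 were called higher and 153 lower.

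**Figure D1:**
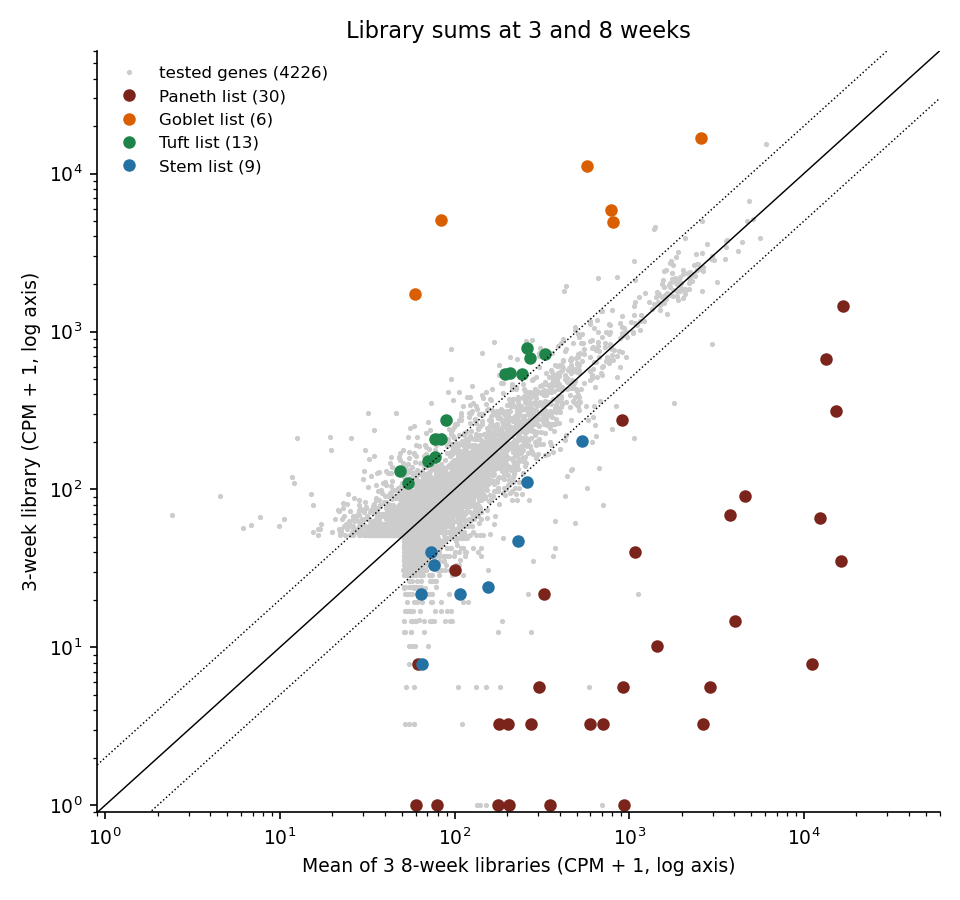
Level of each of 4226 genes in the 3-week library (vertical axis) against the mean of 3 8-week libraries (horizontal axis), both as CPM + 1 on log axes, with genes of the Paneth, goblet, tuft and stem cell lists in colour, a solid line at equal levels and dotted lines at 2-fold. The 30 Paneth list genes lie below the line and the 6 goblet list genes above it.

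To see which cells carried these transcripts, a cell was called marker-positive for a lineage when the summed level of that lineage's marker list passed a fixed number of transcripts per 10000 of the cell (500 for Paneth, 50 for goblet, tuft and enteroendocrine, 100 for enterocyte, 10 for stem and 20 for proliferating cells) and at least 2 genes of the list were detected. These cuts define ranges of a score, and a cell can pass several. Shares are given with exact Clopper-Pearson 95% intervals, which cover counting error only. No doublet caller was run.

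No cell of the 3-week library was Paneth marker-positive, 0 of 62, which allows a share of up to 4.84% by the limit of 3 cells of the total and up to 5.78% by the exact interval. At 8 weeks 14 of 87, 6 of 65 and 14 of 69 cells were, or 16.1% (9.09 to 25.5%), 9.23% (3.46 to 19%) and 20.3% (11.6 to 31.7%). Goblet marker-positive cells made up 30 of 62 cells at 3 weeks, 48.4% (35.5 to 61.4%). The 8-week libraries held 18 of 87, 9 of 65 and 18 of 69 such cells, or 20.7% (12.7 to 30.7%), 13.8% (6.53 to 24.7%) and 26.1% (16.3 to 38.1%). Of those 8-week cells 6, 3 and 7 were also Paneth marker-positive. Without them 12, 6 and 11 goblet marker-positive cells remained (13.8, 9.23 and 15.9% of all kept cells, Paneth marker-positive ones included). The difference between the 3-week share and the 8-week mean then grew from 28.2 to 35.4 percentage points. It could only grow, because no 3-week cell was Paneth marker-positive and the totals stayed the same.

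Tuft marker-positive cells made up 19 of 62 cells at 3 weeks, 30.6% (19.6 to 43.7%), against 18.4, 20 and 20.3% at 8 weeks. This was above every 8-week library, by 11.1 percentage points from a mean of 19.6 ± 1.02% (SD, n = 3), and the counting intervals overlapped. Enteroendocrine marker-positive cells made up 8 of 62 cells, 12.9% (5.74 to 23.9%), against 21.8, 29.2 and 24.6% at 8 weeks, below every 8-week library with overlapping intervals. Stem marker-positive cells made up 6 of 62 cells, 9.68% (3.63 to 19.9%), against 48.3, 40 and 46.4%, and here the 3-week interval lay below the lowest 8-week bound of 28%. Proliferating cells made up 13 of 62, 21% (11.7 to 33.2%), against 49.4, 40 and 40.6%. This interval overlapped those of 8-week replicates 2 (28 to 52.9%) and 3 (28.9 to 53.1%), but not that of replicate 1 (38.5 to 60.4%). Enterocyte marker-positive cells were rare, with 1 cell at 3 weeks and 0, 1 and 0 at 8 weeks.

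**Figure D2:**
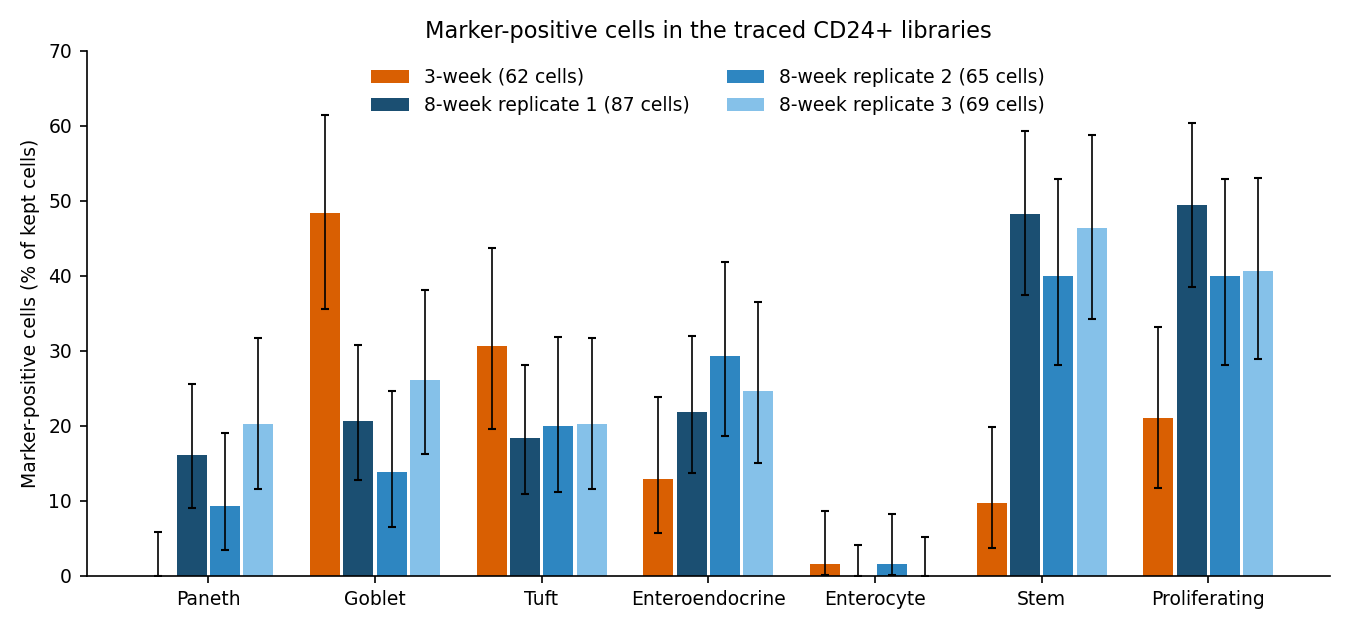
Marker-positive cells as a percentage of kept cells for 7 lineages, 1 bar per library, with exact 95% binomial intervals as error bars. The 3-week bar (orange) is at 0 for Paneth cells, reaches 48.4% for goblet cells and is the lowest of the 4 for enteroendocrine, stem and proliferating cells.

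Depth moved with the time point, so each cell was also thinned to 3000 transcripts. The 3-week and 8-week shares were then 0 against 9.23 to 18.8% for Paneth, 48.4 against 13.8 to 27.5% for goblet, 30.6 against 18.4 to 23.2% for tuft, 12.9 against 21.8 to 29.2% for enteroendocrine, 17.7 against 43.1 to 55.1% for stem and 25.8 against 40.6 to 50.8% for proliferating cells. Each lineage kept its order against the 8-week libraries. The stem and proliferating cuts run through dense ranges of the score: 24 and 27 of the 62 3-week cells lay between 0.5 and 2 times the stem and the proliferating cut. The corresponding numbers were 1 for Paneth, 4 for goblet, 1 for tuft and 2 for enteroendocrine cells. At 8 weeks 16, 8 and 11 cells lay in that range of the goblet cut, beside 18, 9 and 18 positive cells, a larger part than at 3 weeks. The median goblet marker-positive cell held 752 goblet list transcripts per 10000 at 3 weeks and 148, 156 and 132 at 8 weeks.

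Of 33 Paneth list genes in the files, 30 passed the 50 CPM minimum, each of them in the 8-week mean, and all 30 were called lower at 3 weeks. Their median log2 difference was -4.85, and -4.47 over all 33 with the members under the minimum, beside 0.07 over all tested genes. Summed over the list, the level was 3115 CPM at 3 weeks and 116948, 67887 and 151890 CPM at 8 weeks, 36-fold lower at 3 weeks than the 8-week mean. Defensins are near-identical copies whose reads can be split among members, so the list sum is firmer than any single defensin. In library sums fewer cells of a type and less RNA per cell cannot be told apart.

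Lyz1, lysozyme, stood at 310.5 CPM at 3 weeks and at 14470, 8231 and 23125 CPM at 8 weeks. Mptx2, a pentraxin of Paneth cells (GRCm38 chromosome 1, 173274382 to 173277777, minus strand), gave 2 transcripts at 3 weeks, 4.59 CPM, and stood at 3492, 2177 and 3080 CPM at 8 weeks. The ratio of the 8-week mean to the 3-week level was 635 for Mptx2, with a counting interval of 177 to 5265. Mptx1 stood at 6.88 CPM against 85.3, 48.9 and 47.2 CPM. Every 8-week library was thus far above the 3-week one for these genes. Ang4, an antimicrobial ribonuclease, stood at 67.6 CPM against 4608, 2071 and 4624 CPM. Defa26 and Gm7849 had no transcript at 3 weeks and stood at 933 ± 406 and 701 ± 363 CPM at 8 weeks (SD, n = 3). Against a limit of 3 transcripts in the 3-week library they were at least 136-fold and at least 102-fold higher at 8 weeks. Mmp7, the protease that activates defensins, differed least among the larger genes: 272.9 CPM against 655, 832 and 1229 CPM.

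The Paneth transcripts that the 3-week library did hold were not spread evenly over its cells. Of 1362 such transcripts, 95.8% lay in the 30 goblet marker-positive cells, which held 53.1% of all transcripts, and 36.1% of the 1362 lay in a single cell. Defa24 gave 636 transcripts, of which 615 were in goblet marker-positive cells, and it was detected in 19 of these 30 cells and in 9 of the other 32. For Itln1, an intelectin that binds microbial sugars, the numbers were 286 of 292 transcripts, in 21 of 30 cells and 5 of 32. Lyz1 had 132 of 136 transcripts there and Mmp7 118 of 119. The median goblet marker-positive 3-week cell held 25.6 Paneth list transcripts per 10000, and the median of the remaining cells 0.640. The highest 3-week cell reached 394 per 10000, below the cut of 500, while the median Paneth marker-positive cell reached 5747, 4694 and 5039 per 10000 in the 8-week libraries.

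At 8 weeks Paneth transcripts were present in every kept cell. Cells that should lack them, the tuft marker-positive ones, held a median of 56.3, 43.6 and 79.6 Paneth list transcripts per 10000 in replicates 1, 2 and 3, with a lowest cell at 27.1, and 0 at 3 weeks with a highest cell at 6.27. Enteroendocrine marker-positive cells held nearly the same medians, 53.2, 45.2 and 82 at 8 weeks and 2.29 at 3 weeks. The source of these transcripts was not tested, and Paneth transcripts at or below these levels in other 8-week cells are not counted here as expression by those cells.

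**Figure D3:**
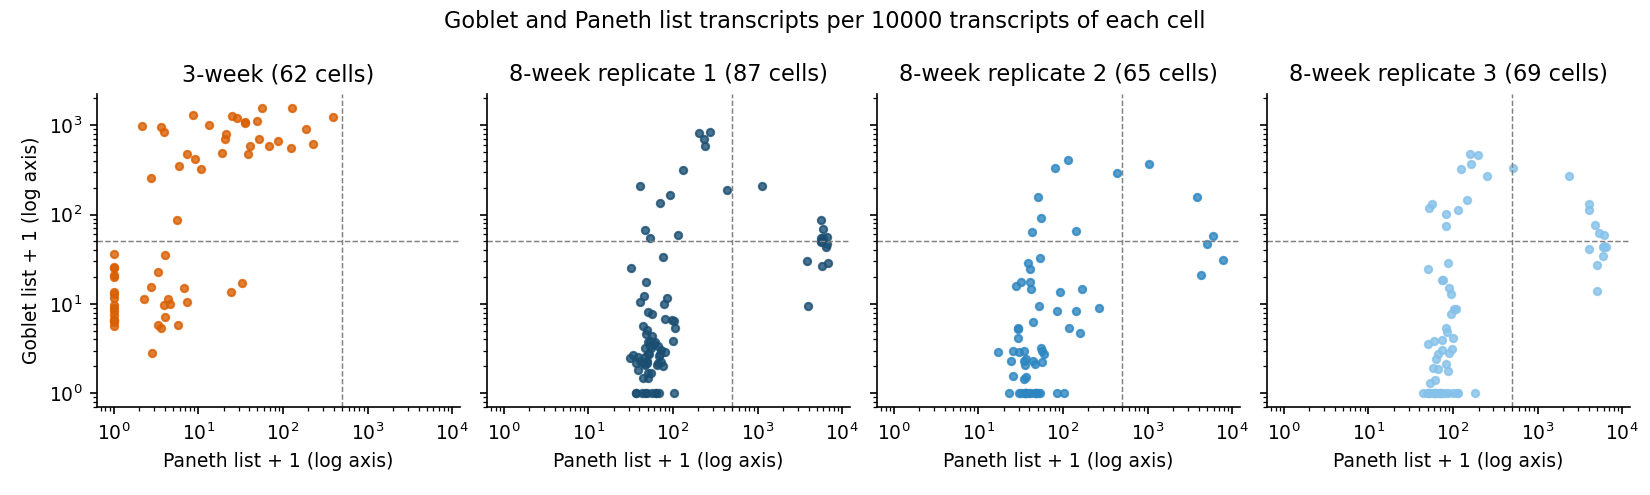
Each kept cell by its Paneth list level (horizontal axis) and goblet list level (vertical axis), in transcripts per 10000 plus 1 on log axes, 1 panel per library, with dashed lines at the cuts of 500 and 50. The 62 3-week cells stop at 394 on the Paneth axis, and 30 of them lie above the goblet cut.

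Of the 7 goblet list genes, 6 passed the minimum and all 6 were called higher at 3 weeks, with a median log2 difference of 3.58. The list sum was 45499 CPM at 3 weeks and 5197, 3678 and 5784 CPM at 8 weeks, 9.31-fold higher at 3 weeks than the 8-week mean. Zg16, a lectin of the mucus layer, stood at 5066 CPM against 157, 1.55 and 90.2 CPM, and 59.2% of its 8-week transcripts came from a single cell. Clca3, a secreted protein of goblet cells, stood at 1735 CPM against 77.6, 3.09 and 93.8 CPM. Both genes were nearly undetected in 8-week replicate 2. Fcgbp, a mucus protein that binds the mucin network (GRCm38 chromosome 7, 28071236 to 28120862, plus strand), stood at 11144 CPM against 765, 278 and 667 CPM. Muc2, the gel-forming mucin itself (GRCm38 chromosome 7, 141690340 to 141754693, plus strand), stood at 5858 CPM against 809, 660 and 880 CPM, 7.48-fold above the 8-week mean. Agr2, a disulfide isomerase needed to fold Muc2, stood at 4926 CPM against 753, 781 and 876 CPM, and Tff3, a trefoil peptide of mucus, at 16760 CPM against 2614, 1940 and 3172 CPM. The member under the symbol Clca1 was below the minimum, with 9.17 CPM at 3 weeks and 3.77 to 21.8 CPM at 8 weeks. The symbols Clca1 and Clca3 are those of the deposited values and were not updated to later gene names. The 3-week level lay above all 8-week libraries for each of the 6 genes.

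RefSeq promoters (GRCm38.p6) were at hand for 3 of the 7 goblet list genes, Fcgbp, Muc2 and Agr2, and are shown because these genes moved together. Each sequence is the 250 bases before the annotated start, 5′ to 3′ on the gene's strand, at chr7:28070986-28071235 for Fcgbp, chr7:141690090-141690339 for Muc2 and chr12:35992675-35992924 for Agr2, all on the plus strand. Capitals mark CAGCTG, an E box of the kind bound by basic helix-loop-helix factors such as Atoh1. The motif is its own reverse complement, so 1 search covers both strands.
Fcgbp: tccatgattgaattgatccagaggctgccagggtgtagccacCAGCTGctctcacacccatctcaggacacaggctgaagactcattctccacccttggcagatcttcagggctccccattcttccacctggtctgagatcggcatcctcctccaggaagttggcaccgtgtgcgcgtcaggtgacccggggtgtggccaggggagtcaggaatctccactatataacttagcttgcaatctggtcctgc
Muc2: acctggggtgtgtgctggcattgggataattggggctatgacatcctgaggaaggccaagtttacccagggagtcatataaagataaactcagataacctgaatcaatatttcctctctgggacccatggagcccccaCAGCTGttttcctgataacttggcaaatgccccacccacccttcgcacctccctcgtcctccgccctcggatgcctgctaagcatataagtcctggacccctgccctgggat
Agr2: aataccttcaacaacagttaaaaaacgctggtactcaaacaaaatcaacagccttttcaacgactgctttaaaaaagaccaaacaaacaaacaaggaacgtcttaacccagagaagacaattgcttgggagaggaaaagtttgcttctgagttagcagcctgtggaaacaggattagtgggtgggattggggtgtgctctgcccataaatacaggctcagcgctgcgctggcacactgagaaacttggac
The motif occurs once in the Fcgbp window, starting 208 bases before the start, and once in the Muc2 window, 112 bases before it. The Agr2 window holds none. Of 32851 promoters, 4271 (13%) hold it in the same window, and a match is a description of the letters, not of binding.

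Of 11 tested genes of the list of secretory transcription factors and Notch components, 3 were called higher and 0 lower. Over all tested genes 3.43% were called higher and 3.38% lower. In this list 7 of 11 lay above every 8-week library, beside 41.6% of all tested genes. Klf4, a factor of goblet cell differentiation, stood at 384.5 CPM against 128, 85.5 and 153 CPM. Creb3l1, a factor of secretory cells, stood at 191.3 CPM against 44.4, 59.2 and 73.5 CPM, and the Notch ligand Dll1 at 191.4 CPM against 72.2, 52.7 and 74.7 CPM. Atoh1 itself (168.4 CPM against 50.4, 35.8 and 86.2), Spdef, its partner in goblet and Paneth cells (235.8 CPM against 87.4, 66 and 133), and Gfi1 (48.2 CPM against 11.6, 3.09 and 7.54) were above every 8-week library without passing the rule, Gfi1 because it missed the 50 CPM minimum. The Notch target Hes1 stood at 89.9 CPM against 202, 164 and 118 CPM.

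Goblet marker-positive cells were then compared with each other, leaving out those that were also Paneth marker-positive: 30 cells at 3 weeks and 12, 6 and 11 at 8 weeks, with 232364 and 173920, 56395 and 117354 transcripts. Of 4089 genes tested in the sums over these cells, 42 were called higher at 3 weeks (1.03%) and 186 lower (4.55%). The cells were chosen by the summed goblet list, so the levels of its members describe how far above the cut the cells lay. Within these cells Fcgbp stood at 20828 CPM against 5772, 1670 and 3427 CPM, Zg16 at 9468 CPM against 1229, 0 and 613 CPM, and Muc2 at 10920.5 CPM against 3512, 3770 and 2458 CPM. Agr2 (9230 CPM against 4788, 6740 and 4097) and Tff3 (31023 CPM against 15562, 11232 and 12099) were above every 8-week library but not called. Atoh1 (317 CPM against 216, 286 and 250) and Spdef (413 CPM against 370, 437 and 398) were near the 8-week range. Fcgbp, Zg16, Clca3 and Muc2 were called higher within these cells. Each belongs to the list that chose the cells, so these calls are not weighed against the levels of the factors.

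Among the genes called lower in these goblet marker-positive cells were 7 of 10 tested endocrine transcription factors, including Neurog3 at 43.9 CPM against 373, 406 and 824 CPM. The 8-week cells included 3, 2 and 4 that were also enteroendocrine marker-positive, against 1 at 3 weeks. Without these, Neurog3 had no transcript in any of the 4 libraries and 0 of 2 tested endocrine factors was called, while 40 genes were called higher and 151 lower of 3989. Members of the major histocompatibility complex (MHC) class II, which presents peptides to T cells, were also called lower. Cd74 stood at 30.2 CPM against 231, 232 and 235 CPM and H2-Eb1 at 30.2 CPM against 194, 506 and 290 CPM within the goblet marker-positive cells. Cd74, H2-Aa, H2-Ab1 and H2-Eb1 were 4 of 4 called with and without the enteroendocrine marker-positive cells. Reg3g, an antimicrobial lectin, stood at 47.6 CPM against 326, 1151 and 1496 CPM.

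Of 13 tested tuft list genes, 6 were called higher at 3 weeks in the library sums and all 13 lay above every 8-week library, beside 41.6% of all tested genes, with a median log2 difference of 1.28. The list sum was 5094 CPM against 1776, 2336 and 1924 CPM. Trpm5, the cation channel of taste-like signalling, stood at 534.1 CPM against 176, 231 and 177 CPM. Avil, an actin-binding protein, stood at 682.8 CPM against 234, 313 and 261 CPM, and the leukotriene enzymes Alox5ap and Ltc4s at 543.8 CPM against 166 to 237 CPM and at 274.5 CPM against 66.9 to 106 CPM. Dclk1 (722 CPM against 290, 368 and 326) and Pou2f3, the tuft cell factor (108.2 CPM against 48.2, 63.7 and 46.7), lay above every 8-week library and under the 2-fold gap.

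Within tuft marker-positive cells, 0 of 14 tested tuft list genes was called in either direction, with a median log2 difference of 0.20. This compared 19 cells at 3 weeks with 16, 13 and 14 at 8 weeks, and of 4512 tested genes 67 were called higher (1.48%) and 133 lower (2.95%). Dclk1 stood at 2488 CPM against 2463, 2480 and 2651 CPM. Pou2f3 stood at 374 CPM against 389, 379 and 355 CPM, and Trpm5 at 1783 CPM against 1459, 1528 and 1361 CPM. Cd24a stood at 8297 CPM against 7321, 7278 and 7332 CPM. The cells were chosen by the summed tuft list, which holds Dclk1, Pou2f3 and Trpm5, and sorted on CD24, so like levels of these genes follow in part from that choice.

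Among the genes called within the tuft marker-positive cells were members of the Paneth and goblet lists. Of 11 tested Paneth list genes, 10 were called lower: Lyz1 had no transcript at 3 weeks and stood at 619, 668 and 1223 CPM at 8 weeks, and Itln1 stood at 7.92 CPM against 768, 806 and 1248 CPM. In the other direction, 4 of 5 tested goblet list genes were called higher. Fcgbp stood at 215 CPM against 27.1, 22.2 and 0 CPM, Tff3 at 669 CPM against 179, 316 and 71 CPM, and Clca3 at 127 CPM with no transcript in the 8-week tuft cells. These moved with the library sums, where Paneth transcripts were low and goblet transcripts high at 3 weeks. The part of free RNA in the Paneth and goblet transcripts of these cells was not tested.

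**Figure D4:**
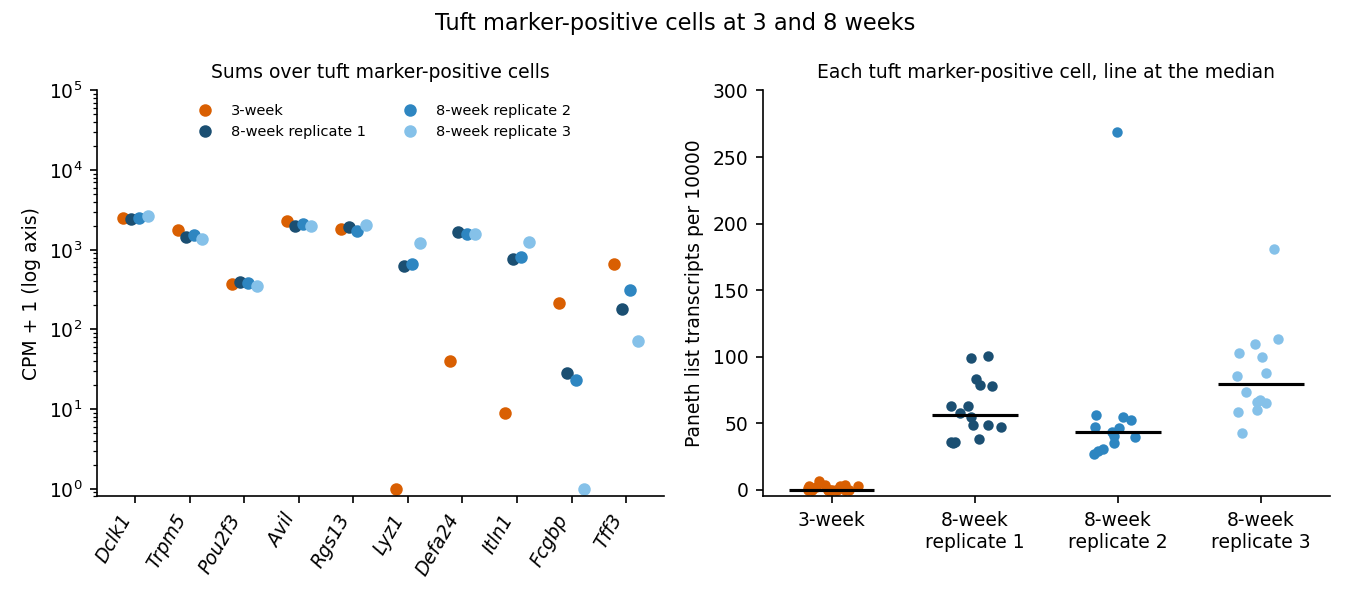
Left, levels of 10 genes summed over tuft marker-positive cells of each library (CPM + 1, log axis). Right, Paneth list transcripts per 10000 in each of these cells, with a line at the median of each library: none of the 5 tuft genes was called, the 19 3-week cells stay at or below 6.27 and the 8-week medians are 56.3, 43.6 and 79.6.

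Of 22 tested enteroendocrine list genes, 6 were called lower at 3 weeks and 1 higher, beside 3.38% and 3.43% of all tested genes. The list sum, 9797 CPM against 5850, 13619 and 9774 CPM, lay inside the 8-week range. Chga, the granule protein chromogranin A (GRCm38 chromosome 12, 102554969 to 102565028, plus strand), gave 9 transcripts at 3 weeks, 20.7 CPM, against 719, 1629 and 1020 CPM, 54.3-fold lower than the 8-week mean. Chgb, chromogranin B, stood at 837.2 CPM against 2466, 4004 and 2464 CPM. Neurog3, the factor that starts the endocrine fate, stood at 41.9 CPM against 116, 119 and 143 CPM, from 3 cells at 3 weeks. Tph1, the enzyme that starts serotonin synthesis, had no transcript at 3 weeks and stood at 143, 201 and 72.7 CPM at 8 weeks, at least 20.2-fold higher. Tac1, the substance P precursor often found in the same cells, stood at 89.97 CPM against 472, 436 and 373 CPM, and Bex2 at 13.8 CPM against 51.6, 65.5 and 50.7 CPM. Reg4 was lower too, 353.7 CPM against 1189, 1809 and 2399 CPM, and was named after its values were seen.

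Of 8 tested genes for hormones and amine synthesis, 2 were called lower (Tac1 and Tph1), 1 higher (Sst) and 5 neither. Gip, the incretin of K cells, stood at 4430 CPM at 3 weeks and at 127, 2608 and 1439 CPM at 8 weeks, above every 8-week library but not 2-fold above replicate 2. Sst, somatostatin, was called higher at 1933 CPM against 0, 488 and 807 CPM, and 98.2% of its 3-week transcripts came from a single cell. Cck (681.9 CPM against 460, 536 and 395) and Sct (374.3 CPM against 178, 313 and 189) lay above every 8-week library. Ghrl (336.7 CPM against 102, 1749 and 658) lay inside the 8-week range, and Gcg (60.2 CPM against 266, 76.4 and 1121) below it. Pyy had no transcript at 3 weeks and 0, 30.3 and 8.87 CPM at 8 weeks, and Nts had none in any of the 4 libraries. The 8-week libraries differed from each other by over 10-fold for Gip, Ghrl and Gcg, and a single cell held 41.2, 47.6 and 45.4% of their 8-week transcripts.

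Within enteroendocrine marker-positive cells, 8 at 3 weeks with 42267 transcripts and 19, 19 and 17 at 8 weeks, 360 of 4931 tested genes were called higher (7.3%) and 537 lower (10.9%). At this depth the minimum of 50 CPM is 2.11 transcripts at 3 weeks, so most such calls rest on few molecules. Chga had at least 3 transcripts in 2 of 8 cells at 3 weeks and in 13 of 19, 13 of 19 and 9 of 17 cells at 8 weeks, with levels of 214 CPM against 4825, 8641 and 6957 CPM. Tph1 had at least 3 transcripts in 0 of 8 cells against 8 of 19, 7 of 19 and 4 of 17. Reg4 likewise had them in 0 of 8 cells against 2 of 19, 5 of 19 and 5 of 17. Gip, by contrast, had them in 5 of 8 cells against 2 of 19, 6 of 19 and 3 of 17, and its level was 45374 CPM against 857, 13745 and 9671 CPM. Rfx6 (814 CPM against 156, 311 and 193) and Pax6 (697 CPM against 167, 220 and 239), factors of endocrine cells, were called higher. The level of Neurog3 within these cells, 433 CPM against 656, 645 and 979 CPM, was not called.

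**Figure D5:**
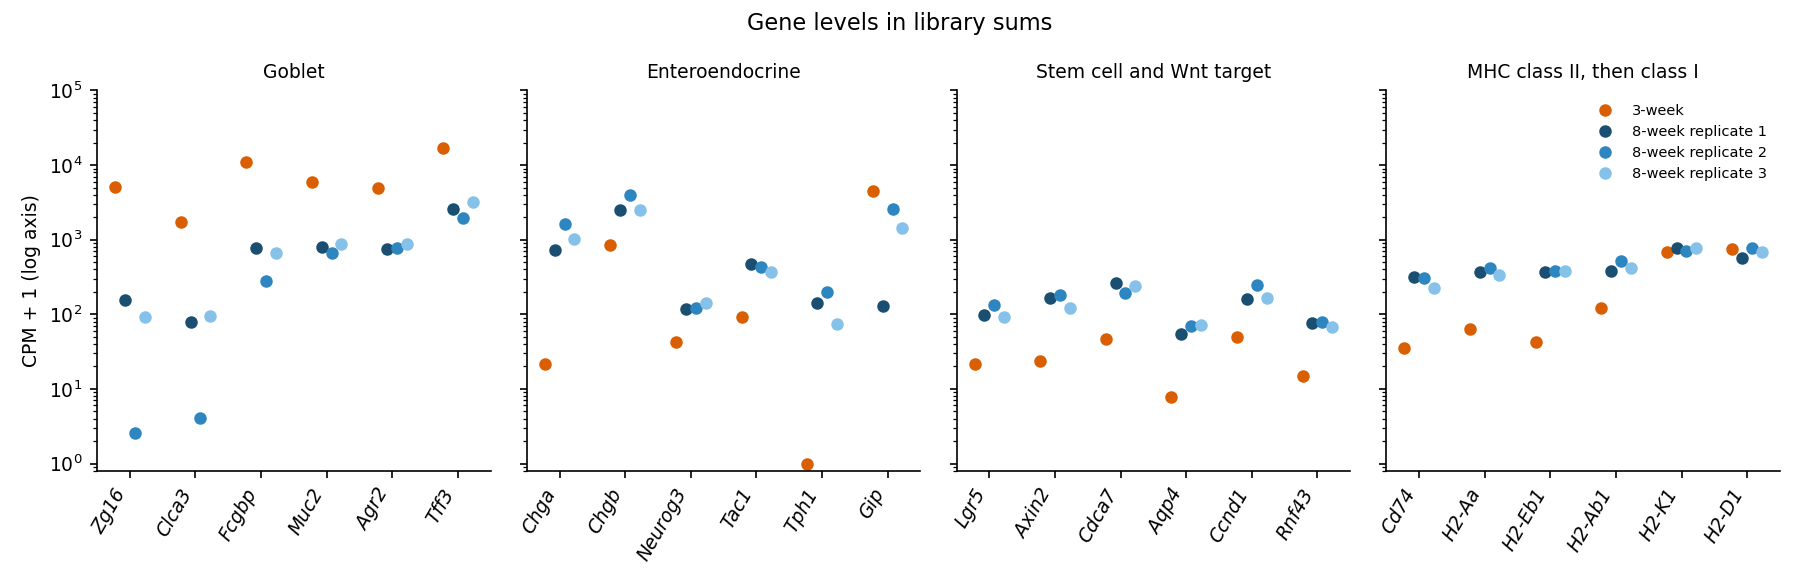
Levels of goblet, enteroendocrine, stem cell or Wnt target, and MHC genes in the library sums (CPM + 1, log axis), 1 point per library. The 3-week point (orange) is above the 8-week points for the 6 goblet genes, below them for the 5 endocrine genes other than Gip and the 6 stem or Wnt genes, and below them for Cd74, H2-Aa, H2-Eb1 and H2-Ab1.

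Of 9 tested stem cell list genes, 6 were called lower at 3 weeks and all 9 lay below every 8-week library, beside 31.4% of all tested genes, with a median log2 difference of -1.36. The list sum was 522 CPM against 1646, 1691 and 1582 CPM, a 3.14-fold difference from the 8-week mean. Lgr5, the receptor that marks the stem cells from which the labelled lineage started (GRCm38 chromosome 10, 115450311 to 115587780, minus strand), gave 9 transcripts at 3 weeks, 20.6 CPM, against 95.5, 134 and 92.2 CPM. Axin2, a feedback inhibitor and target of Wnt signalling, stood at 22.9 CPM against 162, 183 and 121 CPM. Aqp4 stood at 6.87 CPM against 53.2, 68.2 and 70.7 CPM, Cdca7 at 46 CPM against 258, 192 and 242 CPM, and the ion cotransporter Slc12a2 at 202.5 CPM against 517, 557 and 529 CPM. The 8-week libraries lay close together for these genes. The factor Ascl2 (32.1 CPM against 78.3, 65.1 and 82.2) was below every 8-week library and under the 2-fold gap.

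Of 11 tested Wnt target genes, 0 were called higher and 6 lower: Lgr5, Axin2, Ccnd1, Cd44, Myc and Rnf43. Over all tested genes 3.38% were called lower. Lgr5 and Axin2 are also in the stem cell list. Ccnd1, cyclin D1, stood at 48.2 CPM against 157, 247.5 and 164 CPM, Myc at 22.9 CPM against 96.4, 60.4 and 74.6 CPM, and Rnf43, a ligase that removes Wnt receptors, at 13.7 CPM against 74.3, 77.5 and 66.8 CPM. Ccnd2 went the other way, 417.5 CPM against 314, 257 and 314 CPM, by less than 2-fold.

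Of 24 tested proliferation genes 4 were called lower, the replication helicase subunits Mcm3, Mcm5 and Mcm6 and the microtubule regulator Stmn1. Over all tested genes 3.38% were called lower. In this list 17 of 24 lay below every 8-week library, beside 31.4% of all tested genes, and 1 lay above. The median log2 difference was -1.07, and the list sum was 2384 CPM against 4813, 4571 and 2818 CPM. Mcm3 stood at 6.87 CPM against 69.4, 51.2 and 70.8 CPM and Stmn1 at 134.5 CPM against 544, 457 and 417 CPM. Mki67, a marker of cycling cells, stood at 114.1 CPM against 193, 183 and 106 CPM, inside the 8-week range, and Top2a at 201.8 CPM against 306, 420 and 156 CPM. Both genes were lower in 8-week replicate 3 than in the other two, and the 3-week level lay nearest to that replicate. Among the 13 proliferating marker-positive 3-week cells, 7 were also goblet marker-positive, against 5 of 43, 2 of 26 and 7 of 28 at 8 weeks. In that group 193 of 4396 genes were called higher (4.39%) and 482 lower (11%). Only 6 stem marker-positive cells remained at 3 weeks, 3 of them also proliferating, with a median depth of 5584 transcripts against 17778, 11320 and 12452 at 8 weeks. In those cells Lgr5 gave 1 transcript at 3 weeks.

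MHC class II genes formed a further group below the 8-week range. Of 15 tested genes for antigen presentation and interferon response, 5 were called lower and 0 higher, and the 5 all belong to class II presentation. Over all tested genes 3.38% were called lower. H2-Eb1, a class II beta chain (GRCm38 chromosome 17, 34305867 to 34316674, plus strand), gave 18 transcripts at 3 weeks, 41.4 CPM, against 370, 374 and 377 CPM. Cd74, the invariant chain, stood at 34.5 CPM against 313, 309 and 225 CPM, and H2-Aa at 62.1 CPM against 372, 414 and 339 CPM. H2-Ab1 stood at 119.9 CPM against 383, 521 and 422 CPM, and the peptide-loading chain H2-DMa at 13.8 CPM against 104, 106 and 77.2 CPM. The class I genes H2-K1 (688.3 CPM against 768, 712 and 762) and H2-D1 (750.6 CPM against 570, 769 and 677) and B2m (698.9 CPM against 867, 881 and 819) differed from the 8-week mean by 1.22-fold or less. Ciita, the activator of class II genes, was below the minimum level at 9.17 CPM against 43.7, 30.9 and 35.3 CPM.

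Of 22 leukocyte genes in the files, 10 had no transcript in any of the 4 libraries and 16 had none at 3 weeks. Their summed level was 293 CPM at 3 weeks and 85.5, 71.3 and 108 CPM at 8 weeks, and most of the 3-week sum was Rac2 at 244.3 CPM against 56.5, 40.4 and 66.8 CPM. The pan-leukocyte gene Ptprc stood at 23 CPM against 5.08, 4.64 and 10.1 CPM. Within tuft marker-positive cells 2 leukocyte list genes passed the minimum and 0 were called. None passed it within goblet, enteroendocrine, stem or proliferating marker-positive cells. The part of leukocytes in the class II levels was not tested. The stromal and endothelial list summed to 59.8 CPM at 3 weeks and 109, 182 and 49.7 CPM at 8 weeks, and the erythroid list to 0 CPM and at most 6.19 CPM.

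Among epithelial antimicrobial genes outside the Paneth list, Reg3b was called lower at 11.5 CPM against 256.2, 371 and 191 CPM and Dmbt1, a scavenger glycoprotein, at 136.2 CPM against 903, 629 and 484 CPM. Reg3a was called higher at 67.8 CPM, all of it from 1 cell. Of 8 tested enterocyte list genes, 4 were called higher in the library sums: Fabp1 (772.9 CPM against 84.4 to 100 CPM), Fabp2 (726.8 CPM against 119 to 186 CPM), Sis and Mttp. Over all tested genes 3.43% were called higher. A single cell held 49.6% of the 3-week Fabp1 transcripts and 83.5% of those of Sis, whereas Fabp2 was found in 34 of 62 cells.

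Of the stress genes, the inducible heat shock genes Hspa1a (213.9 CPM against 20.5, 7.74 and 26.6) and Hspa1b (176.6 CPM against 47.5, 17.1 and 25.2) were called higher, 2 of 9 tested in their list. Over all tested genes 3.43% were called higher. None of 9 tested immediate early genes was called, and 8 of the 9 lay above every 8-week library, beside 41.6% of all tested genes. Hspa1a was at 317 CPM in the library labelled 3-week non-traced, the highest of the series, at 67.1 to 125 CPM in the 5-day libraries, at 10.8 CPM in the ungated 8-week one and at 0 to 6.94 CPM in the 8-week non-traced ones. Of 28 endoplasmic reticulum folding genes 1, Pdia4, was called higher, and 26 of 28 lay above every 8-week library, beside the same 41.6%, with a median log2 difference of 0.68. Of 10 tested cholesterol synthesis genes, Fdps was called higher at 246.7 CPM against 88, 101 and 107 CPM. Neither growth factor gene of the stem cell niche that passed the minimum was called: Wnt3 stood at 18.4 CPM against 32.7, 59.2 and 64.5 CPM, and Dll4 at 64.3 CPM against 31.9, 34.1 and 21.4 CPM. None of 79 ribosomal protein genes and none of 77 oxidative phosphorylation genes was called, with median log2 differences of 0.09 and 0.22.

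The same shares were taken in the other libraries of the series. Tuft marker-positive cells made up 50 and 50.8% of cells in the 8-week non-traced CD24+ libraries, stem marker-positive cells 19 and 23.8% and proliferating cells 17.9 and 28.6%, and their Cd24a level was 3656 to 3690 CPM. A tuft share above, and stem and proliferating shares below, those of the 8-week traced CD24+ libraries thus also occurred at 8 weeks, in cells without the label. Paneth marker-positive cells were 17.5 and 20.2% of cells in the 8-week non-traced CD24+ libraries. They were 3.75% in the 8-week traced library sorted without the CD24 gate and 1.35 to 14.3% in the 5 libraries of 5-day traced cells. The 0 of 62 was below each of these shares. Its limit of 4.84% lies above that 3.75% and above the 1.35 and 2.94% of 5-day replicates 1 and 4. From those libraries the 3-week count cannot be told apart. The library labelled 3-week non-traced CD24+ also had 0 of 50 Paneth marker-positive cells, which allows up to 6% by the same limit of 3 cells. Its Cd24a level, 544.3 CPM, was close to the 544.2 CPM of the ungated 8-week library and below the 2960 CPM of the 3-week traced library, and its enterocyte marker-positive share was 20%. It differed in both values from the other CD24+ libraries and is not used as a 3-week control. Its marker-positive shares were 10% goblet, 4% tuft, 4% enteroendocrine, 34% stem and 54% proliferating cells. Cd74 (282 CPM), H2-Eb1 (156 CPM) and Lgr5 (65.1 CPM) were higher there than in the 3-week traced library (34.5, 41.4 and 20.6 CPM). Zg16 and Hspa1a, at 3732 and 317 CPM, were above every 8-week traced CD24+ library there too. The goblet share of 48.4% was above all other libraries except 1 of the 5-day libraries at 61.8%, whose goblet marker-positive cells reached at most 172 goblet list transcripts per 10000 against 1568 at 3 weeks. In list sums, the 45499 CPM of goblet genes at 3 weeks stood above the 4453 to 8424 CPM of the 5-day libraries and the 17532 CPM of the library labelled 3-week non-traced.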

How the data were processed

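Single cells were profiled by CEL-seq, which tags the 3′ ends of transcripts with cell and molecular barcodes. Per the submitters' processing notes, reads were mapped with BWA 0.6.2-r126 against mm10. The deposited values are the authors' expected counts, 1 per gene and cell barcode. Undoing a correction for repeated use of 256 molecular barcodes returned whole numbers for every value below saturation (tolerance 1e-09). In the 4 libraries 78 values sat at the saturation value, 0 of them at 3 weeks and 45, 10 and 23 in 8-week replicates 1, 2 and 3. Such a value is a lower bound, so 8-week levels that include it may be too low. For all 4 libraries the 16204 genes shared with the authors' combined table, also expected counts, held the same values there. The 288 other columns of that table were not used.

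Spike-in controls (1.94 to 6.84% of counts in the 4 libraries) were left out, cells under 3000 transcripts removed, and library sums scaled to CPM (Python 3.11.15, numpy 2.4.6, pandas 2.3.3, scipy 1.17.1). The call rule was tested on simulated data. edgeR 4.0.16 (R 4.3.3) gave TMM factors for 1 alternative, on rounded sums. No test was made between the times. Named genes are the 10 with the largest gap to the nearest 8-week library in each direction, leaving out those led by 1 cell (over 25%), and members of the gene lists. Some of these genes are not reported here. The lists, cuts and comparison were chosen with earlier results of these data known. The regional genes, the goblet cells without enteroendocrine marker-positive ones and the sums without Paneth and goblet cells were chosen after seeing the data. Gene positions are from GENCODE M21 (GRCm38). Intervals and limits of 3 counts cover counting error only. Per the labels' protocols, RNA was extracted from sorted cells with Trizol.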

Additional observations from a re-analysis of the deposited data

How the results depend on the processing

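The shares of all 7 lineages stayed on the same side of the 8-week libraries under every alternative tried. In percentage points of the 3-week share minus the 8-week mean, the tuft difference of 11.1 became 8.81 with at least 1500 transcripts per cell, 17.3 with at least 5000, 8.84 with the cut at 0.5 times and 12.7 at 2 times. The stem difference of -35.2 became -30.7 and -22.5 at 0.5 and 2 times the cut, and the proliferating one of -22.4 became -6.86 and -13.4, and -33.3 with at least 5000 transcripts. The enterocyte difference of 1.10 became 2.31 with at least 1500 transcripts and 5.56 at 0.5 times the cut. With Paneth marker-positive cells not counted as goblet but kept in the total, the goblet difference was 35.4, a step that could only widen it. Leaving out each 8-week library in turn gave -18.2 to -12.7 for Paneth, 25 to 31.1 for goblet, 10.5 to 11.4 for tuft, -14.0 to -10.3 for enteroendocrine, 0.844 to 1.61 for enterocyte, -37.6 to -33.5 for stem and -24.0 to -19.3 for proliferating cells, and 154 to 208 genes higher and 150 to 202 lower.

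The 145 genes called higher became 68 with the mean over cells, 218 with no minimum level, 405 at a fold of 1.5 and 274 without Paneth and goblet marker-positive cells, of which 96 were among the 145. The 143 called lower became 216 with library totals without Paneth list genes, 240 with a minimum of 20 CPM, 267 with none, 347 at a fold of 1.5 and 278 without Paneth and goblet marker-positive cells, of which 97 were among the 143. Fewer cells were summed in the last setting, and the cause of the change was not tested in any of these settings. Of 180 recomputed log2 differences of the 20 leading genes, 0 reversed. No paired analysis was possible because the 3-week group holds 1 library with no replicate number. A lone 3-week library of 62 cells limits what can be seen: a share of up to 5.78% is inside the exact interval of a count of 0, and a difference between libraries cannot be told apart from a difference between times.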

Other observations

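A pair of genes outside the lists was high in 3-week cells of every kind and was picked out after the values were seen. Slx1b, a subunit of a DNA repair nuclease, was detected in 60 of 62 cells at 3 weeks and stood at 858.2 CPM against 103, 195 and 202 CPM at 8 weeks. Its level was 345 to 842 CPM in the 5-day libraries, 349 CPM in the 3-week library labelled as non-traced, 92.6 CPM in the ungated 8-week library and 63 to 178 CPM in the 8-week non-traced ones. Erdr1 was detected in 56 of 62 cells and stood at 608.7 CPM against 145, 225 and 165 CPM. It was at 154 to 706 CPM in the 5-day libraries, 928 CPM in the 3-week library labelled as non-traced and 124 to 127 CPM in the 8-week non-traced ones. For both genes the 5-day libraries thus reached levels near those at 3 weeks, and every 8-week library was lower than the 3-week traced one.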
